A study of Mus musculus with 6 samples.

Results

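The transcripts described here belong to genes of DNA replication and the cell cycle, measured in whole hearts of 3 wild-type mice and 3 Pgc1b knockout mice with an Affymetrix array for each heart that reads the 3' ends of transcripts. The 9 genes Mcm4, Mcm5, Mcm6, Mcm7, Tk1, Uhrf1, Ccnb1, Nusap1 and Ccnd2 were looked up by symbol, and every probe set with values and 1 of these symbols alone was kept. This gave 13 probe sets of 8 genes, out of 643 probe sets and 494 genes with values, and Ccnb1, the mitotic cyclin B1, was not analysed here. Both genotypes had a mixed sv129 and C57BL/6 background, each array stands for 1 heart described as a biological replicate, and the labels used here state no age. Pgc1b, now named Ppargc1b, encodes a transcriptional coactivator and was itself not analysed here, so the genotypes were not checked against the targeted transcript. Values are read here as RMA values on the log2 scale, in which 1 unit is a 2-fold change.

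A cell that divides first licenses its replication origins by loading a ring of Mcm proteins, then copies its DNA in S phase and separates the copies in mitosis. D-type cyclins start this sequence by activating kinases that release E2F transcription factors, and E2F factors in turn drive many S phase genes. Most muscle cells of an adult heart have left the cell cycle, so transcripts of this kind in a whole heart may also come from endothelial cells, fibroblasts and blood cells. In such bulk samples fewer cells of a type and less RNA per cell cannot be told apart.

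Promoter sequence played no part in choosing the genes, and 3 of the 4 Mcm genes could be compared in it. In RefSeq windows of mouse build GRCm38.p6, which run from 250 bases before to 50 bases after each gene start, 9 windows of 7 genes were matched, and Mcm4 and Ccnd2 had none. The 4 E2F-type spellings TTTCCCGC, TTTGGCGC, TTTGCCGC and TTTCGCGC were searched on both strands as 1 class, and spellings on opposite strands may overlap. They occurred in 1 window each of Mcm5, Mcm6, Mcm7 and Uhrf1, thus in every Mcm gene with a window, against 2.26% of all 32851 windows of the same length. The windows of Tk1, Ccnb1 and Nusap1 and the other windows of Mcm7 and Uhrf1 did not contain these letters. CCAAT, the letters bound by the factor NF-Y, occurred in 7 of the 9 windows, including all Mcm windows, both Uhrf1 windows and the Ccnb1 window, against 37.4% of all windows. TTTGAA, the core of the cell cycle homology region of mitotic genes, occurred in 0 of the 9 windows, against 17.9% of all windows.

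The stretches before the start that carry the E2F-type letters are shown because every Mcm gene with a window has them, with those letters in capitals and each stretch given 5′ to 3′ on the strand of its gene. The Mcm5 stretch is chr8:75109341-75109382 on the plus strand, in which a TTTCGCGC and a TTTGGCGC on the other strand overlap. The Mcm6 stretch is chr1:128359730-128359830 on the minus strand, with 3 matches, 2 of them overlapping. The Mcm7 stretch is chr5:138172026-138172063 on the minus strand, and its capitals are a TTTCCCGC on the other strand. The Uhrf1 stretch is chr17:56304113-56304150 on the plus strand.
Mcm5: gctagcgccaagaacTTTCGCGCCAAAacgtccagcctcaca
Mcm6: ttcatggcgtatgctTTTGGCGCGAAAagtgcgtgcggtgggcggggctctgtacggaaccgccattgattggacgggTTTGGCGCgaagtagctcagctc
Mcm7: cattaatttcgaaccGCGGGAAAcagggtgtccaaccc
Uhrf1: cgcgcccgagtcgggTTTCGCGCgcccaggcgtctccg
These matches are a description of the letters and were not linked to binding.

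None of the genes separated knockout from wild-type hearts. Differences ran from -0.16 to 0.17 on the log2 scale, 6 of the 13 probe sets had a higher and 7 a lower mean in knockout hearts, and their median was -0.02, beside 0.01 over all 643 probe sets. With limma and Benjamini-Hochberg adjustment over all 643 probe sets, 0 of the 13 were called at an adjusted p under 0.05, where 0 of 643, or 0%, were called. Their adjusted p-values ran from 0.57 to 0.98. At an unadjusted p under 0.05 the counts were 0 of 13 and 66 of 643, or 10.3%. The values of the 2 genotypes overlapped in all 13 probe sets, whereas they did not overlap in 120 of 643, or 18.7%. Probe sets of 1 gene are not independent, so these counts describe 8 genes.

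**Figure D1:**
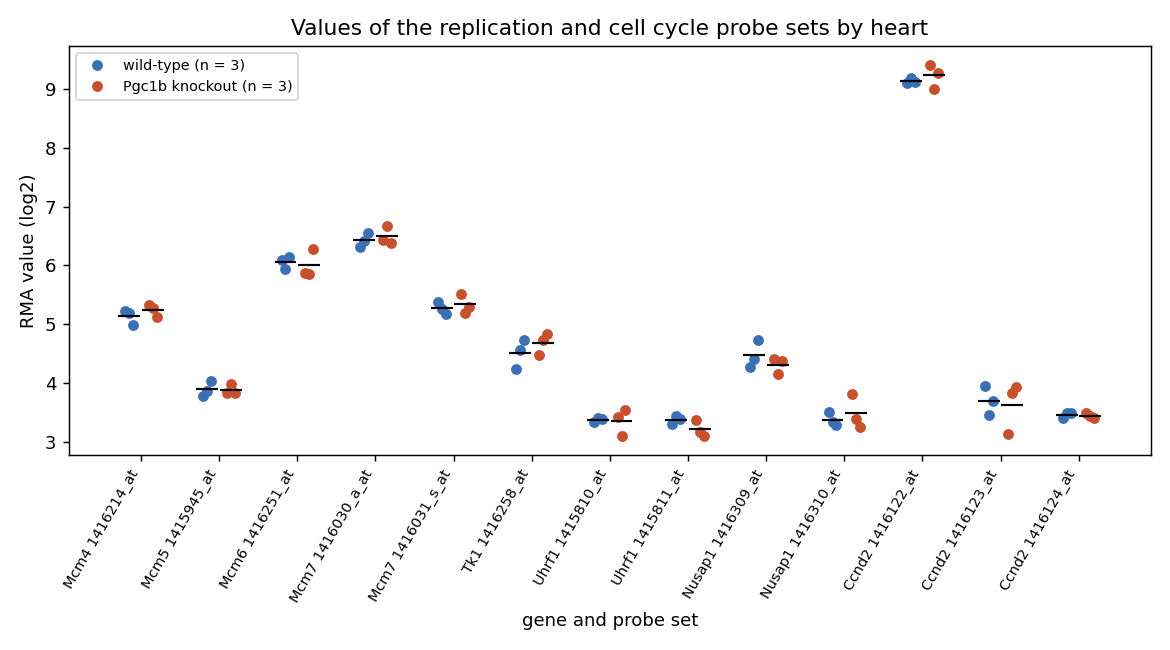
RMA values (log2, vertical axis) of the 13 probe sets of 8 genes (horizontal axis), with a point per heart and a line at each genotype mean (n = 3 each). Wild-type and knockout points overlap in every probe set, and heights of different probe sets are not comparable levels.

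The helicase subunits come first in the order of events. Mcm4, Mcm5, Mcm6 and Mcm7 are subunits of the ring that unwinds DNA at replication forks. Mcm4 stood at 5.22, 5.19 and 4.99 in wild-type replicates 1 to 3 and at 5.33, 5.28 and 5.12 in knockout replicates 1 to 3. The 2 highest values were from knockout hearts and the lowest from a wild-type heart, while knockout replicate 3 lay below 2 wild-type hearts. The means were 5.13 ± 0.13 and 5.24 ± 0.11 (SD, n = 3 each), a difference of 0.11 (95% interval -0.12 to 0.33, adjusted p = 0.69). In linear terms the knockout level was 108% of wild type with an interval of 92.3% to 126%.

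Mcm5 stood at 3.79, 3.87 and 4.04 in wild-type and at 3.83, 3.98 and 3.83 in knockout hearts. All knockout values lay inside the wild-type range. The difference was -0.02 (95% interval -0.23 to 0.20). Mcm6 stood at 6.09, 5.94 and 6.15 in wild-type and at 5.87, 5.85 and 6.28 in knockout hearts. Knockout replicate 3 had the highest value of the 6 hearts, and the other knockout hearts had the 2 lowest. The spread of Mcm6 was accordingly wider in knockout hearts (6.00 ± 0.24) than in wild-type hearts (6.06 ± 0.11; SD, n = 3 each), with a difference of -0.06 (95% interval -0.36 to 0.24). The difference in spread was not tested.

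Mcm7 has 2 probe sets. The brighter one, 1416030_a_at, stood at 6.32, 6.41 and 6.54 in wild-type and at 6.42, 6.67 and 6.38 in knockout hearts. The dimmer one, 1416031_s_at, whose suffix marks probes that may match more than 1 transcript, stood at 5.38, 5.25 and 5.18 in wild-type and at 5.52, 5.19 and 5.30 in knockout hearts. Both gave the same difference, 0.07, with 95% intervals of -0.17 to 0.31 and -0.18 to 0.31. They ordered the hearts differently, since knockout replicate 2 was highest in the brighter and next to lowest in the dimmer one.

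The Mcm genes therefore differed in sign, with higher knockout means for Mcm4 and Mcm7 and lower ones for Mcm5 and Mcm6. Taking the brightest probe set of each gene as its deviation from its own mean over the 6 hearts, the average of the 4 genes was -0.04, -0.04 and 0.04 in the wild-type hearts, and -0.03, 0.05 and 0.01 in those of the knockout. The genotypes overlapped in this average, and their means differed by 0.02. Of the 6 pairs of subunits, 5 had a negative Pearson correlation over the 6 hearts and 1 a positive one. Without the 2 hearts farthest from the median of the first gene of each pair, 4 were positive and 2 negative. Of the 5 negative pairs, 3 turned positive, namely Mcm4 with Mcm5 (from -0.47 to 0.63), Mcm4 with Mcm7 (from -0.02 to 0.66) and Mcm6 with Mcm7 (from -0.44 to 0.22). Which hearts were left out depends on the gene taken first, and few remained. The signs of these pairs were therefore not resolved.

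The pair that was positive over all 6 hearts was Mcm5 and Mcm7, with r = 0.87 (exact permutation p = 0.032, adjusted 0.19) and Spearman's rho = 0.89 (exact permutation p = 0.033, adjusted 0.20). Without the 2 hearts farthest from the median of Mcm5 r was 0.85. Mcm4 and Mcm6 ran opposite, with r = -0.75 (exact permutation p = 0.085, adjusted 0.34) and rho = -0.83 (exact permutation p = 0.058, adjusted 0.23), and with r = -0.88 without the 2 hearts farthest from the median of Mcm4. The exact tests were two-sided and adjusted by Benjamini-Hochberg over 12 pairs, which are these 6 and the 6 pairs of probe sets of 1 gene described further on. No pair passed the adjustment.

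Tk1 and Uhrf1 act while DNA is copied. Tk1, the cytosolic thymidine kinase that salvages thymidine for DNA synthesis, stood at 4.24, 4.56 and 4.74 in wild-type and at 4.49, 4.73 and 4.83 in knockout hearts. Wild-type replicate 1 was the lowest and knockout replicate 3 the highest, and the other 4 values were interleaved. Tk1 had the highest difference of the 13 probe sets, 0.17 (95% interval -0.17 to 0.51, adjusted p = 0.69), which was 0.03 without wild-type replicate 1, from 4.51 ± 0.25 to 4.68 ± 0.18 (SD, n = 3 each). The interval allows a knockout level between 88.9% and 143% of wild type.

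Uhrf1 recruits the maintenance DNA methyltransferase to newly copied DNA, and 2 probe sets report it. The probe set 1415811_at stood at 3.30, 3.45 and 3.38 in wild-type and at 3.38, 3.17 and 3.10 in knockout hearts. The 2 lowest values were from knockout hearts, and knockout replicate 1 lay within the wild-type range. Its difference of -0.16 (95% interval -0.38 to 0.06) was the one with the lowest p-value among the 13 (adjusted p = 0.57). The other, 1415810_at, stood at 3.35, 3.42 and 3.38 in wild-type and at 3.42, 3.10 and 3.54 in knockout hearts, a difference of -0.03 (95% interval -0.30 to 0.25). Here knockout hearts held both the lowest and the highest value, and knockout replicate 3 was the highest heart in this probe set and the lowest in 1415811_at.

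Mitosis is represented by Nusap1, a protein that bundles spindle microtubules around chromosomes. Its brighter probe set, 1416309_at, stood at 4.27, 4.41 and 4.73 in wild-type and at 4.41, 4.15 and 4.37 in knockout hearts. Wild-type replicate 3 was the highest and knockout replicate 2 the lowest. The means were 4.47 ± 0.24 and 4.31 ± 0.14 (SD, n = 3 each), a difference of -0.16 (95% interval -0.47 to 0.15, adjusted p = 0.69), or 89.5% of wild type (interval 72.1% to 111%).

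The dimmer probe set of Nusap1, 1416310_at, stood at 3.51, 3.35 and 3.28 in wild-type and at 3.81, 3.39 and 3.26 in knockout hearts. Knockout replicate 1 stood above all other hearts and knockout replicate 3 was the lowest. The difference was 0.11 (95% interval -0.23 to 0.45), opposite in sign to that of the brighter probe set.

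Ccnd2, cyclin D2, binds and activates the kinases Cdk4 and Cdk6 in G1 phase. Its probe set 1416122_at stood at 9.10, 9.18 and 9.12 in wild-type and at 9.41, 8.995 and 9.27 in knockout hearts. The wild-type hearts lay close together, with 2 knockout hearts above them and knockout replicate 2 below. The SD of the wild-type hearts was 0.04 and that of the knockout hearts 0.21 (n = 3 each), a contrast that was not tested. The difference was 0.09 (95% interval -0.17 to 0.35, adjusted p = 0.77), which allows a knockout level between 88.9% and 128% of wild type.

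The other probe sets of Ccnd2 were dim. The probe set 1416123_at stood at 3.94, 3.46 and 3.69 in wild-type and at 3.14, 3.83 and 3.94 in knockout hearts, the widest spread of the 13 probe sets (pooled SD within genotypes 0.35). Knockout replicate 1, the highest heart in 1416122_at, was the lowest here. The probe set 1416124_at stood at 3.41, 3.50 and 3.49 in wild-type and at 3.49, 3.44 and 3.41 in knockout hearts, the narrowest spread of the 13 (0.05), and wild-type replicate 1 and knockout replicate 3 had the same value. Their differences were -0.06 (95% interval -0.58 to 0.45) and -0.02 (95% interval -0.18 to 0.14).

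**Figure D2:**
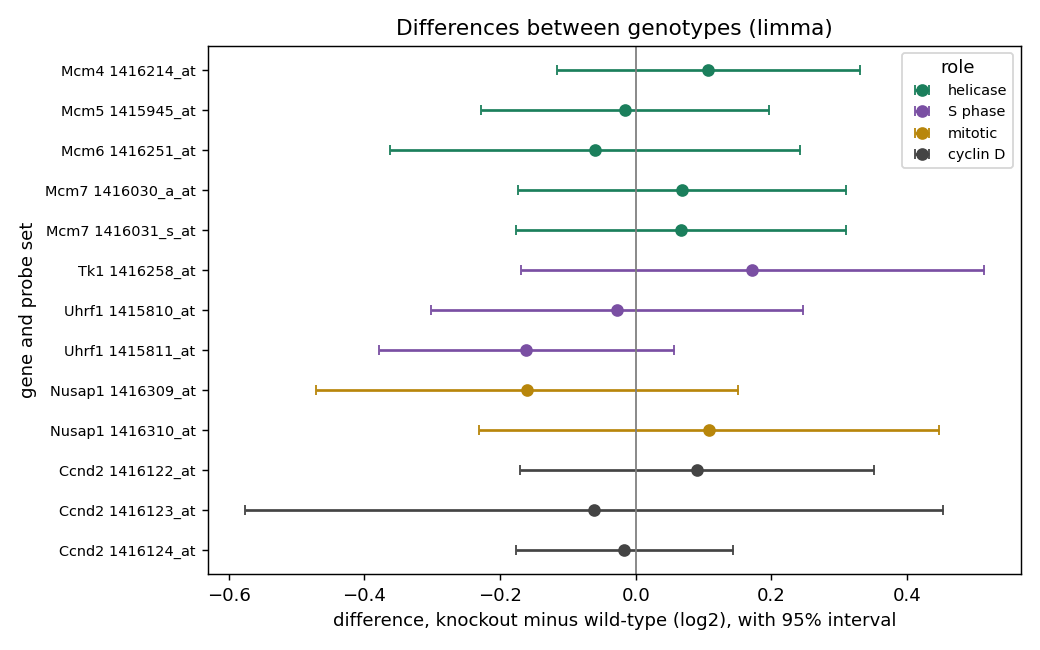
Difference between genotypes (knockout minus wild-type, log2, horizontal axis) for each probe set (vertical axis), with limma's 95% intervals and colours for the role of the gene. All 13 intervals include 0, and helicase, S phase, mitotic and cyclin D genes each have probe sets on both sides of 0.

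Set side by side, the roles did not separate. The median difference was 0.07 over the 5 helicase probe sets, -0.03 over the 3 of S phase, -0.03 over the 2 of Nusap1 and -0.02 over the 3 of Ccnd2, and each role had probe sets of both signs. By the brightest probe set of each gene, 4 of 8 genes were higher and 4 lower in knockout hearts, the higher ones being Mcm4, Mcm7, Tk1 and Ccnd2 and the lower ones Mcm5, Mcm6, Uhrf1 and Nusap1. No test of the difference between roles was made, since the genes were grouped with earlier results known.

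How far the probe sets of 1 gene tell the same story can be read from the 4 genes with more than 1. In Nusap1 and Ccnd2 the probe sets differed in the sign of the difference, and in Mcm7 and Uhrf1 they had the same sign. Over the 6 hearts, 4 of the 6 pairs of probe sets of 1 gene had a negative Pearson correlation. Without the 2 hearts farthest from the median of the first probe set of each pair, 4 of the 6 pairs changed sign. These were Mcm7 (from -0.59 to 0.15), Nusap1 (from -0.21 to 0.12), Ccnd2 1416122_at with 1416123_at (from -0.66 to 0.08) and Ccnd2 1416122_at with 1416124_at (from 0.29 to -0.22). Here too the hearts left out depend on the probe set taken first, and these signs were not resolved. The lowest was that of the dim Ccnd2 probe sets 1416123_at and 1416124_at, with r = -0.84 (exact permutation p = 0.025, adjusted 0.19) and rho = -0.93 (exact permutation p = 0.022, adjusted 0.20), and with r = -0.9996 without the 2 hearts farthest from the median of 1416123_at. For the Mcm7 pair r was -0.59 (exact permutation p = 0.22, adjusted 0.52) and rho was -0.60 (exact permutation p = 0.24, adjusted 0.59).

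**Figure D3:**
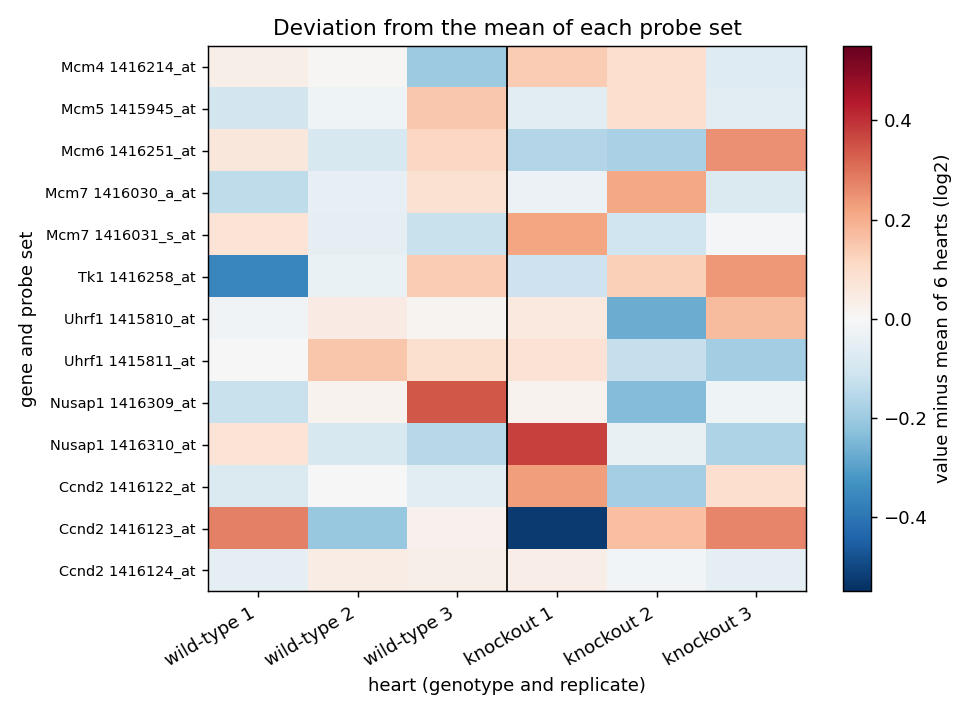
Deviation of each heart (horizontal axis) from the mean of the 6 hearts in each probe set (vertical axis), as colour on the log2 scale, with a line between genotypes. The strongest colours are single hearts, such as knockout replicate 1 at -0.53 in the Ccnd2 probe set 1416123_at and 0.37 in the Nusap1 probe set 1416310_at, and no column is red or blue throughout.

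No heart stood at one end for all the genes. Knockout replicate 1 had the highest value in 4 of the 13 probe sets and the lowest in 1, and knockout replicate 2 the highest in 1 and the lowest in 4. Wild-type replicate 1 had the highest value in 1 and the lowest in 4. Averaged over the brightest probe sets of the 8 genes, the deviations were -0.09, -0.01 and 0.07 in wild-type and 0.01, -0.04 and 0.07 in knockout hearts. The genotype means of this average differed by 0.02.

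The signal of most of these probe sets was low. By mean over the 6 hearts, 10 of the 13 belonged to the dimmest 25% of the 643 probe sets, which ends at 6.01, and those outside it were 1 each of Mcm6, Mcm7 and Ccnd2. The median pooled SD within genotypes was 0.15 over the 13, beside 0.14 over all probe sets of the dimmest 25% and 0.11 over the others. Of the 161 probe sets of the dimmest 25%, 24 did not overlap between genotypes and 14 had an unadjusted p under 0.05. Both counts were 0 for the 10. Detection calls were not used here, so the dim probe sets, among them Mcm5, both of Uhrf1 and the dimmer one of Nusap1, have no check against background. The 95% intervals of the 13 had a median width of 0.52 and together ran from 67.1% to 143% of wild type, so changes of 2-fold in either direction lay outside all 13 intervals. In a dim probe set, background signal can make a change in RNA look smaller than it is.

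**Figure D4:**
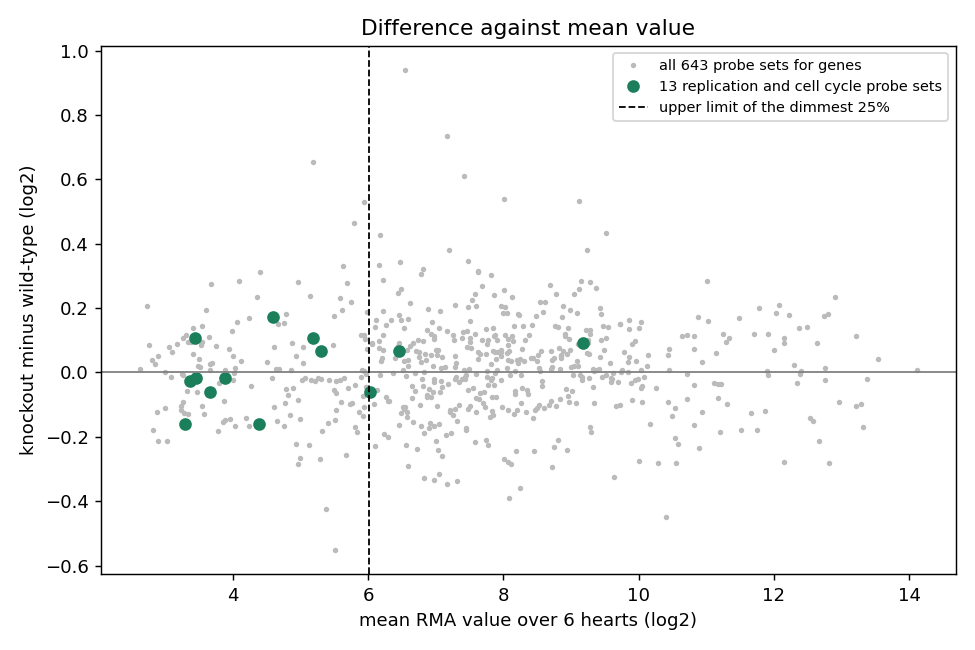
Difference between genotypes (knockout minus wild-type, log2, vertical axis) against the mean RMA value over 6 hearts (log2, horizontal axis) for all 643 probe sets (grey) and the 13 described here (green), with a dashed line at 6.01. The green points lie between -0.16 and 0.17, and 10 of them are left of the line.

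Other genes of the same processes were given by 6 lists of helicase loading, replication forks and nucleotide supply, G1 and S phase control, CDK inhibitors, mitosis, and cohesin with checkpoints and repair. Values were present for 9 of the 171 listed genes, by the brightest probe set of each, and Pcna, Mki67 and Top2a, common marks of dividing cells, were not analysed here. None of the 9 was called over all probe sets, 6 had higher and 3 lower means in knockout hearts, and 1 had an unadjusted p under 0.05, Rrm1. That is 11.1% of the 9, near the 10.3% over all 643 probe sets. The median difference was 0.05.

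Rrm1, the large subunit of ribonucleotide reductase that makes deoxyribonucleotides, stood at 6.27, 6.26 and 6.44 in wild-type and at 6.49, 6.63 and 6.59 in knockout hearts. Every knockout value lay above every wild-type value, as in 1 of these 17 genes and in 18.7% of all 643 probe sets in either direction. The difference was 0.25 (95% interval 0.05 to 0.44), or 119% of wild type, with an unadjusted p of 0.019 and an adjusted p = 0.37, so it did not pass. Rrm2, the other subunit of that enzyme, stood at 3.68, 3.64 and 3.70 in wild-type and at 3.68, 3.65 and 3.78 in knockout hearts, a difference of 0.03 (95% interval -0.13 to 0.19).

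Cdkn2d, an inhibitor of the kinases that D-type cyclins activate, stood at 7.27, 7.58 and 7.41 in wild-type and at 7.53, 7.62 and 7.78 in knockout hearts. The groups overlapped only through wild-type replicate 2, and the difference of 0.23 (95% interval -0.02 to 0.47, adjusted p = 0.51) did not pass. Ccnd3, cyclin D3, stood at 7.71, 7.86 and 8.16 in wild-type and at 7.58, 7.75 and 7.99 in knockout hearts, a difference of -0.13 (95% interval -0.47 to 0.21). The dimmer probe sets of Ccnd2 had the same sign as Ccnd3 and the brightest the opposite one, and none of them passed.

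The origin recognition subunits, on which the Mcm ring is loaded, gave 0.11 for Orc3 (95% interval -0.11 to 0.33) and -0.09 for Orc5 (95% interval -0.30 to 0.12). The mitotic genes gave -0.12 for Stmn1, which destabilises microtubules (95% interval -0.65 to 0.40), and 0.05 for Anapc1, a subunit of the complex that triggers anaphase (95% interval -0.12 to 0.22). The cohesin subunit Rad21 gave 0.05 (95% interval -0.12 to 0.22).

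The values of some other genes ran closest to these over the 6 hearts, among 486 genes by their brightest probe sets. For the average of the Mcm genes these were the RNA helicase Ddx18 (Pearson r = 0.97), the signal peptidase subunit Spcs1 (0.93) and the growth factor antagonist Spry1 (0.92). For the brightest probe set of Ccnd2, 1416122_at, they were the glutathione transferase Mgst1 (0.95), the red cell enzyme gene Bpgm (0.90) and the pancreatic elastase Cela3b (0.89). For the brighter probe set of Nusap1 they were the desaturase Scd2 (0.99), the leukocyte actin-bundling protein Lcp1 (0.94) and the pepsinogen Pgc (0.93). These are the highest of 486 values from 6 hearts and are given as a description.

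Markers of the cell types a heart sample could hold were measured for 5 of 50 listed genes, and 0 of the 5 passed. Actc1, the cardiac actin and the 1 measured cardiomyocyte marker of 6, had means of 14.11 ± 0.03 and 14.12 ± 0.01 (SD, n = 3 each) in wild-type and knockout hearts respectively. These means lay next to the highest value of any row, 14.15, and whether the probe set was saturated was not tested. The endothelial receptor Tie1 differed by -0.08, the neutrophil gene Mpo by 0.10, and the red cell gene Car1 by 0.13 and Bpgm, also of red cells, by 0.31. Fibroblast, macrophage, lymphocyte, smooth muscle and fat cell markers were not analysed here. The hybridisation spikes, control RNAs added in a fixed amount, lay between 9.69 and 10.15 on wild-type and between 9.32 and 9.68 on knockout arrays (mean of 18 probe sets per array, exact two-sided permutation p = 0.1, the smallest that 3 against 3 allows). RNA quality can be read from beta-actin control probe sets at both transcript ends, and their 3' minus 5' difference was 0.75, 0.74 and 0.77 on wild-type and 0.63, 0.73 and 0.51 on knockout arrays, again without overlap (exact two-sided permutation p = 0.1). The part of either measure in these differences was not tested, except that the spikes were also fitted as a covariate.

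With the spike level as a covariate 0 of the 643 probe sets were called, and several differences moved. Those of the helicase genes were 0.28 for Mcm4, -0.08 for Mcm5, -0.25 for Mcm6, and 0.06 and 0.15 for the brighter and dimmer probe sets of Mcm7. Tk1 was at -0.14, Uhrf1 at -0.22 in 1415810_at and -0.17 in 1415811_at, and Nusap1 at -0.46 in its brighter and 0.31 in its dimmer probe set. Ccnd2 was at -0.02, 0.01 and -0.04 in 1416122_at, 1416123_at and 1416124_at. Of the list genes, Ccnd3 and Stmn1 were at -0.46 and -0.45, Orc3 at 0.27, Orc5 at -0.14, Rad21 at 0.13, Rrm1 at 0.18, Cdkn2d at 0.06 and Anapc1 at 0.01. Spike levels did not overlap between genotypes, so this fit separated spike level from genotype poorly. Its intervals were wider, such as -0.69 to 0.20 for Mcm6. By limma they excluded 0 for the brighter Nusap1 probe set (-0.80 to -0.11, adjusted p = 0.41) and Ccnd3 (-0.84 to -0.09, adjusted p = 0.42). The intervals of the other probe sets in this paragraph included 0, with -0.12 to 0.49 for Rrm1.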

How the data were processed

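Total RNA of 6 hearts, 25 ng each, was amplified with a whole-transcriptome kit and labelled as cRNA, per the labels' protocols. The deposited values ran from 2.56 to 14.15 and were read as log2 values from their size. The submitters' processing notes name GCOS, Partek and RMA without role or version. No genome build was stated in the labels. Where RMA is applied it gives all arrays 1 distribution, and differences are then relative to other genes. Of 45101 rows, 707 held values, 64 of them control probe sets, which stayed out of the tests. The remaining rows had no values here and were not analysed here. A platform annotation gave 1 symbol for 597 of the 643 probe sets for genes, several for 26 and none for 20, and all 597 matched RefSeq (GRCm38.p6) by gene ID.

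The genotypes were compared across all 643 probe sets by limma 3.58.1 (R 4.3.3; lmFit, eBayes, two-sided, constant prior variance, with no covariate, filter or further normalization), with Benjamini-Hochberg adjustment over them and calls at an adjusted p under 0.05. Arrays have no read depth, and their number limits the precision. The fit was tested on simulated data. Correlations and spike levels had exact permutation tests (scipy 1.17.1).

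The members and gene lists were chosen with earlier results of these data known. Named genes were all member probe sets, all measured genes of the pathway and marker lists, and the 3 genes with the highest Pearson correlation to the Mcm average, to Ccnd2 and to Nusap1, which stood alone because Ccnb1 was not analysed here. Alternatives were a prior variance that follows the level, array weights, quantile normalization, median centring, leaving out the dimmest 25% of probe sets, 1 probe set per gene, the replicate number as a block, the hybridisation spikes as a covariate, and leaving out each heart.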

Additional observations from a re-analysis of the deposited data

How the results depend on the processing

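With 3 hearts per genotype and dim signals, small differences could not be resolved, and no call was made for the 13 replication and cell cycle probe sets in any of 14 alternatives, in which their lowest adjusted p by limma was 0.32. Not every interval included 0 in the alternatives. That of Uhrf1 1415811_at was -0.41 to -0.01 with array weights and -0.44 to -0.04 without knockout replicate 1. That of Nusap1 1416309_at was -0.80 to -0.11 with the spike covariate. Over all 643 probe sets the count of calls was 0 in each alternative except the prior variance that follows the level, which called 2, neither of them among the genes described. Of the 13 probe sets, 3 kept the sign of their difference in all alternatives run and 10 did not. Array weights gave 0.0859 for Ccnd2 1416123_at. The hybridisation spike covariate gave -0.0164 for Ccnd2 1416122_at, 0.0138 for Ccnd2 1416123_at, -0.143 for Tk1, -0.0279 for Rrm2 and -0.0488 for Bpgm. Quantile normalization gave -0.0221 for Rrm2, and median centring gave -0.0135 for Rrm2 and -0.0352 for Actc1.

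Leaving out each heart gave -0.00236 to 0.206 for Ccnd2 1416122_at, -0.212 to 0.186 for 1416123_at and -0.0450 to 0.00235 for 1416124_at. It gave -0.0708 to 0.0537 for Mcm5, -0.201 to 0.0149 for Mcm6, -0.0220 to 0.128 for Mcm7 1416030_a_at and -0.0259 to 0.139 for 1416031_s_at. The ranges were -0.0523 to 0.220 for Nusap1 1416310_at, -0.122 to 0.102 for Uhrf1 1415810_at, -0.00834 to 0.0576 for Rrm2, -0.367 to 0.00132 for Stmn1 and -0.00303 to 0.0277 for Actc1. Without a sign change the ranges were 0.0345 to 0.284 for Tk1 (lowest without wild-type replicate 1), 0.0334 to 0.169 for Mcm4, -0.262 to -0.0287 for Nusap1 1416309_at, -0.241 to -0.105 for Uhrf1 1415811_at, -0.242 to -0.00721 for Ccnd3, 0.151 to 0.305 for Cdkn2d, 0.214 to 0.305 for Rrm1, 0.00642 to 0.220 for Car1 and 0.174 to 0.520 for Bpgm. The cause of these shifts was not tested. The labels number the hearts 1 to 3 in both genotypes without saying that a number pairs them. The deviations of same-numbered hearts correlated at -0.24, -0.10 and 0.19 over the 643 probe sets. Those of differently numbered hearts ran from -0.30 to 0.33. With the replicate number as a block, limma called 0 probe sets, and 51 rather than 66 had an unadjusted p under 0.05.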
